A study of Mus musculus with 11 samples.

Results

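The antioxidant defence genes are 36 genes that remove superoxide and peroxides, keep thiols reduced, make glutathione, bind metals or control that program. They were chosen by name and matched to their Ensembl gene IDs, and all 36 were among the 19329 gene IDs listed. RNA of whole pancreatic islets was sequenced in bulk from chow-fed male mice at 14 weeks of age, in 6 wild-type libraries and in 5 libraries of mice homozygous for PDX1 P33T, a proline to threonine exchange in the transactivation domain of the islet transcription factor PDX1. The mutation was made by CRISPR-Cas9 in C57BL/6N embryos and is carried in the germ line by every cell. The methods call the wild-type animals littermates and also say that cohorts came from homozygous intercrosses, and the islets were cultured after isolation. A figure legend of the study gives 6 mice per biological replicate, while the sample labels do not mention pooling. Therefore n and SD refer to libraries, and p-values set the group difference against the spread between libraries. The question asked of these genes was whether their transcripts differed between PDX1 P33T and wild-type islets.

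Superoxide dismutases turn superoxide into hydrogen peroxide, which catalase, glutathione peroxidases and peroxiredoxins then reduce to water. The reducing power comes from NADPH through thioredoxin and glutathione, and the transcription factor NRF2, held back by KEAP1, raises many of the genes concerned through antioxidant response elements in their promoters. Beta cells are known for low catalase and glutathione peroxidase activity, and metallothioneins, small cysteine-rich proteins, bind the zinc and other metals that these cells handle.

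The antioxidant response element core was read as TGACNNNGC and the metal response element core as TGCACNC or TGCGCNC, on both strands. Windows of 250 bases before the transcription start came from RefSeq (GRCm38.p6), which held 42 windows for 31 of the 36 members. The antioxidant core was in 6 of these 42 windows (14.3%) and in 10.2% of all 32851 windows. The 6 windows belong to *Sod1*, *Prdx1*, *Txnrd1*, *Gclm*, *Nfe2l2* and *Mt2*. The metal core was in 10 of the 42 windows (23.8%) and in 21.4% of all windows. The windows of *Prdx1* (chr4:116685349-116685598, plus strand) and *Gclm* (chr3:122245307-122245556, plus strand) are shown because these genes come up in the results below, with the antioxidant core in capitals.
Prdx1: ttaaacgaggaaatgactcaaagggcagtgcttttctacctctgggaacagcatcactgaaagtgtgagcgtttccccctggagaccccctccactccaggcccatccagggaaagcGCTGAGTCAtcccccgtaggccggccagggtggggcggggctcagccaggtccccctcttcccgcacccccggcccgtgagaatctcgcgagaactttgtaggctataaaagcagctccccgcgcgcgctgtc
Gclm: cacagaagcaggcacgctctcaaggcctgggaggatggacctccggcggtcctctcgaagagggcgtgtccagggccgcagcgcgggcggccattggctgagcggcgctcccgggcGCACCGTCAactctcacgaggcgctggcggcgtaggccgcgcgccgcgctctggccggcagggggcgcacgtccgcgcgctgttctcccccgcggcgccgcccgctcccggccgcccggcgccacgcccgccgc
In *Gclm* a metal core overlaps the antioxidant core. *Mt2* (chr8:94172368-94172617, plus strand) and *Mt1* (chr8:94178839-94179088, plus strand) start 6471 bases apart and are shown because these neighbours differ widely in level, with the metal core in capitals.
Mt2: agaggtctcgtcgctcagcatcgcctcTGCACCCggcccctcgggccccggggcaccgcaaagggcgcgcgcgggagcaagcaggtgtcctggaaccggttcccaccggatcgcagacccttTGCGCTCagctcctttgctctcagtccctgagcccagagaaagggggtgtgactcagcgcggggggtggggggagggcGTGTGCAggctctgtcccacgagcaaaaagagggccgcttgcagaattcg
Mt1: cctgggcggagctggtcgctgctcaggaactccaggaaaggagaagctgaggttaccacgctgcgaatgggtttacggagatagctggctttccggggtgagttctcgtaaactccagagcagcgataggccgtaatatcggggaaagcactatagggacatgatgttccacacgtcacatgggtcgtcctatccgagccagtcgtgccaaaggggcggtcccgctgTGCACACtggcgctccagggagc
*Mt2* held 3 metal cores and an antioxidant core, and *Mt1* held 1 metal core. These counts depend on the annotated start used, since bases after it were not searched, and they were not set against the levels. Such a match is a description of the letters and not of binding.

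Levels are given as FPKM, reads divided by gene length and by a library scale, so that genes of different length can be set side by side. All 36 members had a value in every PDX1 P33T library. Wild-type values stood on the rows of other genes in the deposited table, and the wild-type row could be identified for 24 members. For 6 of these (*Sod3*, *Cat*, *Gpx8*, *Prdx3*, *Prdx4* and *Gclm*) it was identified by the reads in a list of the authors, and only the top of that list, ordered by difference, was at hand. These 6 were therefore bound to differ, and their p-values are a description. The other 18 were identified by gene length and level, which asks for means within 4-fold and favours a close match, so a large difference could not have been seen in them. The recovered reads summed to between 17416516 and 34866763 per library over the listed rows. The library scale in the FPKM is not that sum. In PDX1 P33T replicate 2 it was 23731684, below the 25897617 recovered reads, while in every other library it was above them. *Pdx1* itself stood between 77.88 and 79.999 FPKM in the PDX1 P33T libraries, and its wild-type row was not identified. A point mutation need not change that level, so it does not check the labels. In GENCODE vM21 (GRCm38) 9 members share exon bases with another gene (*Gclm*, *Gss*, *Hmox2*, *Keap1*, *Mt2*, *Prdx2*, *Prdx5*, *Txnip* and *Txnrd2*), and their values are uncertain to that extent, since it is not stated which library protocol, stranded or not, was used.

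In PDX1 P33T islets 35 of the 36 members were above the median of all gene IDs with a value (1.77 FPKM over 18963), and 17 were in the top 10% of them. The member means ran from 0.213 FPKM (*Sod3*) to 267 FPKM (*Mt1*), with a median of 18.6 FPKM. The highest were *Mt1*, rank 108 of 18963, the secreted glutathione peroxidase *Gpx3* at 248 FPKM and rank 123, and the lipid peroxide-reducing *Gpx4* at 156 FPKM. Peroxiredoxins summed to 352 FPKM with the sulfiredoxin that repairs them, whereas catalase was at 3.21 FPKM and the superoxide dismutases at 0.213 to 73.7 FPKM. The median coefficient of variation between these libraries was 11.2%, near the 13.2% over the 11179 gene IDs with a mean of at least 1 FPKM. It was under 10% for 15 members and over 20% for 9.

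**Figure D1:**
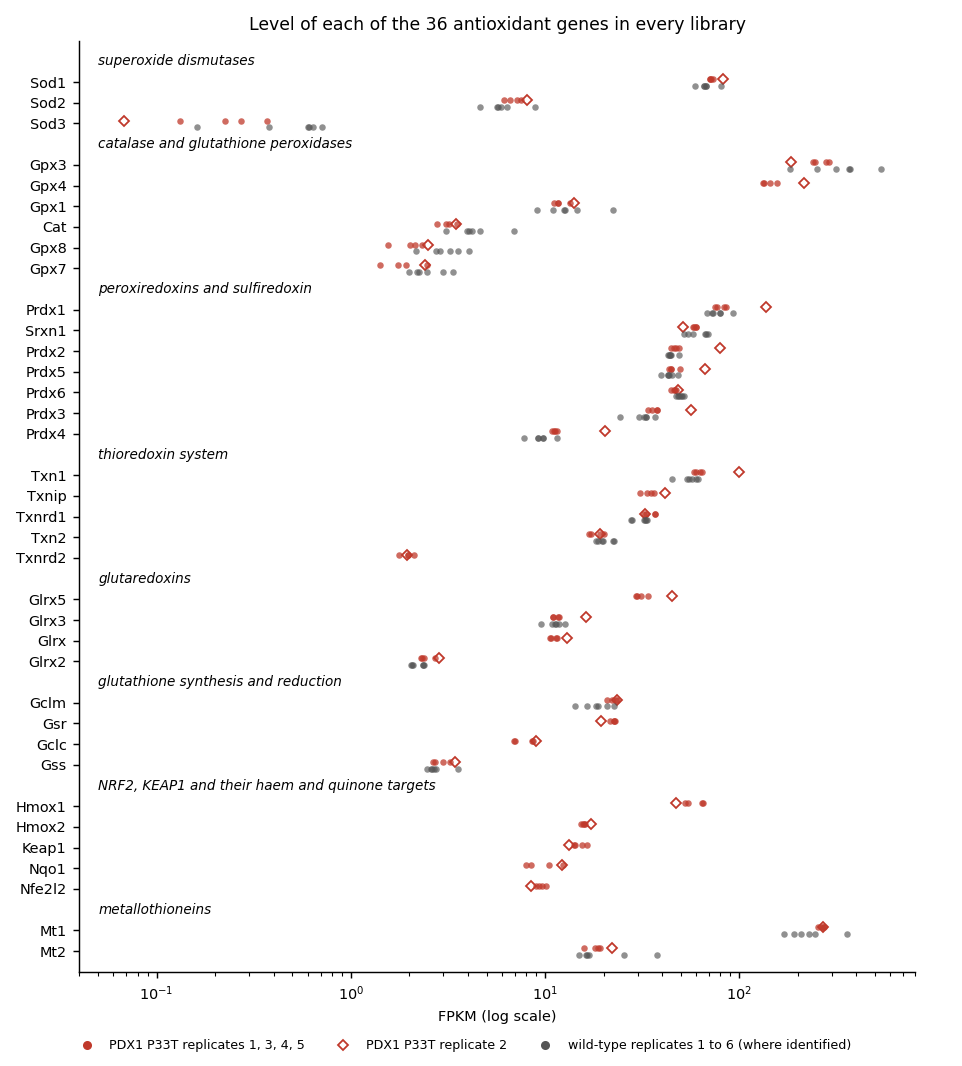
FPKM of each of the 36 members on a log axis, by family, in the PDX1 P33T libraries (red, replicate 2 as an open diamond) and, for the 24 members whose row was identified, in the wild-type libraries (grey). The groups overlap for all 24, and replicate 2 lies to the right of the other PDX1 P33T libraries in most peroxiredoxins and in *Txn1*, *Glrx5*, *Glrx3* and *Gpx4*.

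None of the 24 members with wild-type values was called between PDX1 P33T and wild-type (adjusted p of at most 0.05 and at least 1.5-fold, limma), against 0.0893% of the 7839 genes in the fit. At an unadjusted p under 0.05 there were 6, of which 3 were lower and 3 were higher, against 12.4% lower and 11.1% higher over the fit, and limma-voom also gave 0 called and 6. All 6 were from the authors' list, in which 88.2% of the 1672 genes reached that level, and the count was 0 of the 18 identified by length and level, against 5.9% of 6167 such genes. The groups overlapped for all 24 members, against 3.05% of the genes in the fit whose groups did not overlap. Relative to wild-type, 14 members had a higher and 10 a lower log2 value in PDX1 P33T, against 49.4% higher over the fit, and the median log2 difference was 0.12, against -0.039 over all genes in the fit. That background holds many low genes. With only genes at a mean of at least 1 FPKM, the median was 0.13 for the 23 members left and 0.057 for all genes.

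**Figure D2:**
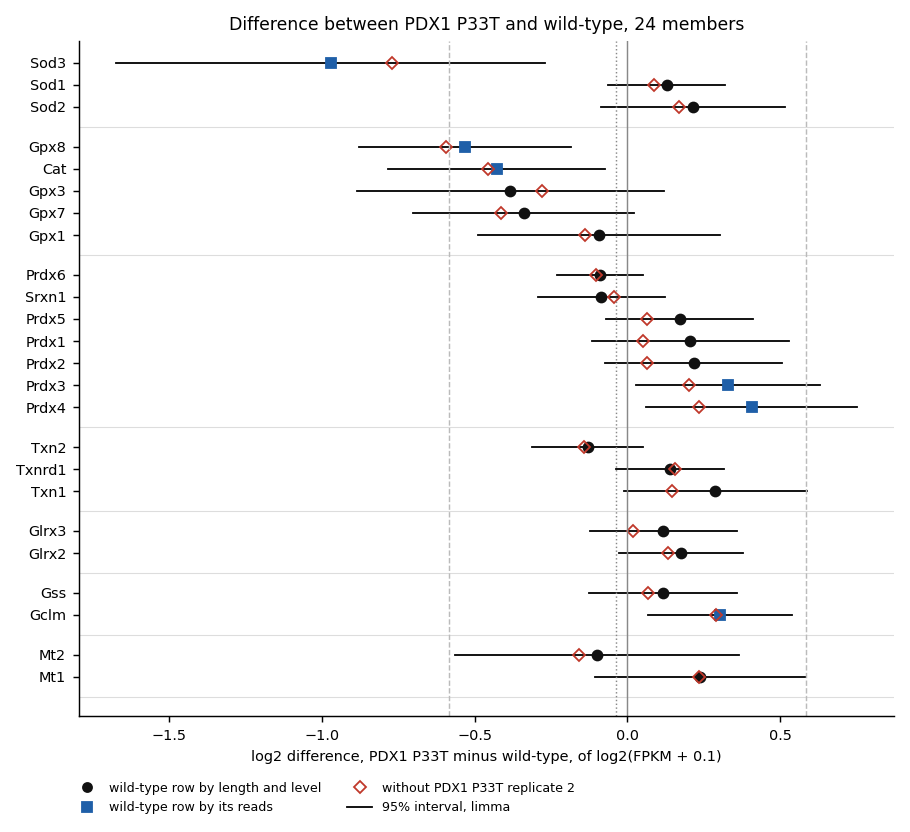
Log2 difference (PDX1 P33T minus wild-type, log2(FPKM + 0.1)) of the 24 members with the 95% interval from limma, by family. Squares mark the 6 members from the authors' list, open diamonds the value without PDX1 P33T replicate 2, dashed lines a 1.5-fold difference and the dotted line the median of all genes in the fit. No member passed the adjusted test, and leaving out replicate 2 moved *Prdx1* to *Prdx5* and *Txn1* towards 0.

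Of the superoxide dismutases, *Sod1*, the copper-zinc enzyme of the cytosol, was at 73.2, 82.7, 70.3, 71.0 and 71.5 FPKM in PDX1 P33T replicates 1 to 5, and at 59.1 to 80.3 FPKM with a median of 66.6 in wild-type. The ranges overlap, and the log2 difference was 0.13 ± 0.089 (SE, adjusted p = 0.831). *Sod2*, the manganese enzyme of mitochondria, was lower per length, at 7.10 ± 0.740 FPKM (SD, n = 5) in PDX1 P33T and 6.20 ± 1.41 (SD, n = 6) in wild-type. Its highest library was wild-type replicate 1, at 8.83 FPKM, and its lowest was wild-type replicate 3, at 4.63 FPKM. Its log2 difference of 0.21 was 0.14 without that last library and 0.32 without wild-type replicate 1.

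*Sod3*, the secreted enzyme found on matrix and vessels, had the lowest level and the largest difference of the 24 members. It was at 0.368, 0.0676, 0.133, 0.272 and 0.225 FPKM in PDX1 P33T, on 6 to 37 reads, and at 0.161 to 0.706 FPKM with a median of 0.602 in wild-type, on 14 to 84 reads. Only wild-type replicate 1, at 0.161 FPKM, lay within the PDX1 P33T range, while 2 PDX1 P33T libraries were below it. The PDX1 P33T mean was 41.3% of the wild-type mean, a log2 difference of -0.97 ± 0.32 (SE) that did not pass the test (adjusted p = 0.470, limma). Leaving out PDX1 P33T replicate 2, the lowest library, gave -0.77 (adjusted p = 0.865), and leaving out wild-type replicate 1 gave -1.20 (adjusted p = 0.145).

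All 5 members of the catalase and glutathione peroxidase group with wild-type values had a lower log2 value in PDX1 P33T, with a median difference of -0.38, and none passed the test. For *Gpx1* the direction turned without wild-type replicate 3. *Cat*, which encodes catalase of peroxisomes, was at 3.19, 3.48, 3.51, 3.11 and 2.77 FPKM in PDX1 P33T and at 3.09 to 6.96 FPKM with a median of 4.13 in wild-type. Wild-type replicate 2 had the highest value, and all but 1 of the wild-type libraries lay above every PDX1 P33T library. The log2 difference was -0.43 ± 0.16 (SE, adjusted p = 0.470), and leaving out wild-type replicate 2 gave -0.29.

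*Gpx8*, a membrane peroxidase of the endoplasmic reticulum, was at 2.13, 2.49, 2.01, 2.32 and 1.55 FPKM in PDX1 P33T and at 2.17 to 4.05 FPKM with a median of 3.05 in wild-type. Wild-type replicate 1 was the only wild-type library inside the PDX1 P33T range. The log2 difference was -0.53 ± 0.16 (SE, adjusted p = 0.470), with 53 to 112 reads per library behind it. *Gpx7*, which acts in the same compartment, was at 2.00 ± 0.445 FPKM (SD, n = 5) against 2.54 ± 0.529 (SD, n = 6), a log2 difference of -0.34 with a 95% interval from -0.70 to 0.023.

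*Gpx3* was at 281, 184, 239, 288 and 247 FPKM in PDX1 P33T and at 183 to 539 FPKM with a median of 340 in wild-type. The wild-type libraries spread wider than the PDX1 P33T libraries, from replicate 1 at the bottom to replicate 3 at the top, and the whole PDX1 P33T range lay within theirs. The log2 difference was -0.38 with a 95% interval from -0.89 to 0.12. Leaving out wild-type replicate 3 gave -0.23, and leaving out wild-type replicate 1 gave -0.54. *Gpx1*, the abundant cytosolic enzyme of most tissues, was at only 12.4 ± 1.29 FPKM (SD, n = 5) in PDX1 P33T and 13.7 ± 4.66 (SD, n = 6) in wild-type, with a log2 difference of -0.094 that turned to 0.059 without wild-type replicate 3. *Gpx4* was at 156, 215, 132, 144 and 135 FPKM in PDX1 P33T, highest in replicate 2. No row of its length and level was found for wild-type, and a near-identical copy, *Gpx4-ps2*, is among the gene IDs, so its reads could be split.

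Markers of other cell types moved with some of these values in some libraries and not in others. In wild-type replicates 2 and 3, which were high for *Gpx8*, *Gpx7* and *Sod3*, the summed level of 3 of the 5 macrophage markers (*Cd68*, *Adgre1* and *Csf1r*, all from the authors' list) was 57.3 and 55.4 FPKM. It was 22.1 to 30.6 FPKM in the other wild-type libraries and 17.2 to 27.4 FPKM in PDX1 P33T. The 4 stromal markers summed to 31.55 and 17.95 FPKM in those libraries, to 4.86 to 7.05 FPKM in the other wild-type libraries and to 3.31 to 7.87 FPKM in PDX1 P33T. The 2 endothelial markers with wild-type values, of 4, summed to 82.9 FPKM in wild-type replicate 3, 16.2 to 35.2 FPKM in the other wild-type libraries and 12.9 to 29.0 FPKM in PDX1 P33T. In wild-type replicate 2 *Cat* was at its highest and *Gpx3* below the wild-type median. In PDX1 P33T replicate 2 each of these marker sums was the lowest of the PDX1 P33T libraries. The sum of all 5 macrophage markers was not, at 118 FPKM in replicate 2 against 112 to 128 FPKM in the other PDX1 P33T libraries. In PDX1 P33T replicate 2 *Gpx8* had its highest PDX1 P33T value, while *Sod3* and *Gpx3* had their lowest. No marker of these lists was at 0 throughout the PDX1 P33T libraries. Without wild-type replicates 2 and 3 the log2 differences were -0.24 for *Cat*, -0.38 for *Gpx8*, -0.17 for *Gpx7*, -0.28 for *Gpx3* and -0.76 for *Sod3*, while that of *Gpx1* turned to 0.13, each with an adjusted p of 1.0. The part of these cells in the differences was not tested, and in whole islets fewer cells of a type and less RNA per cell cannot be told apart.

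**Figure D3:**
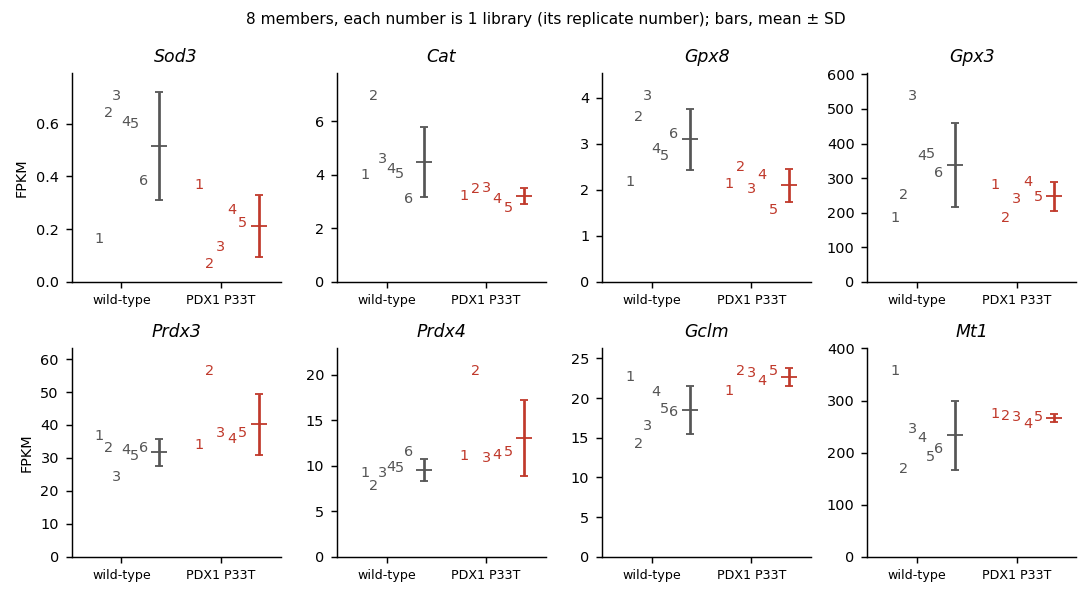
FPKM of 8 members in every library, each numeral standing for the replicate of that number, with the mean and SD beside each group. Wild-type replicate 1 is the low library for *Sod3*, *Gpx8* and *Gpx3* and the high one for *Gclm* and *Mt1*, and PDX1 P33T replicate 2 stands above the others for *Prdx3* and *Prdx4*.

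Of the 7 peroxiredoxin and sulfiredoxin members, 5 had a higher log2 value in PDX1 P33T and 2 a lower one, with a median difference of 0.21 and none called. *Prdx4*, the peroxiredoxin of the endoplasmic reticulum, where it uses peroxide to oxidise folding proteins, was at 11.1, 20.4, 10.9, 11.2 and 11.5 FPKM in PDX1 P33T. In wild-type it was at 7.82 to 11.5 FPKM with a median of 9.48. All 5 PDX1 P33T libraries lay above the wild-type median, and 2 of them above the highest wild-type library, replicate 6, with replicate 2 far above the rest. The log2 difference was 0.41 ± 0.16 (SE, adjusted p = 0.470), and it was 0.23 without replicate 2.

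*Prdx3*, the mitochondrial peroxiredoxin, was at 33.9, 56.5, 37.5, 35.6 and 37.6 FPKM in PDX1 P33T and at 24.3 to 36.8 FPKM with a median of 32.6 in wild-type. Its log2 difference was 0.33 ± 0.14 (SE, adjusted p = 0.488), and 0.20 without replicate 2. *Prdx1*, a cytosolic enzyme and a target of NRF2, was at 77.1, 137, 83.5, 74.8 and 84.9 FPKM in PDX1 P33T and at 68.0 to 93.1 FPKM with a median of 76.3 in wild-type. Apart from replicate 2 every PDX1 P33T library lay within the wild-type range, and its log2 difference of 0.21 was 0.051 without that library. *Prdx2*, which is also cytosolic, showed the same step, with 79.2 FPKM in replicate 2 and 44.5 to 49.1 FPKM in the other 4, and its log2 difference of 0.22 was 0.065 without it.

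*Prdx5*, found in mitochondria, peroxisomes and cytosol, was at 49.7 ± 9.59 FPKM (SD, n = 5) in PDX1 P33T and 43.7 ± 2.91 (SD, n = 6) in wild-type, a log2 difference of 0.17 that was 0.063 without replicate 2. *Prdx6*, which reduces phospholipid peroxides, was among the least variable members, at 46.6 ± 1.37 FPKM against 49.6 ± 1.72, and 3 of the 5 PDX1 P33T libraries lay below the lowest wild-type library. Its log2 difference was -0.090 ± 0.065 (SE, adjusted p = 0.879). *Srxn1*, the sulfiredoxin that reactivates overoxidised peroxiredoxins, was at 57.4 ± 3.55 FPKM against 61.2 ± 7.37, and here replicate 2 was the lowest PDX1 P33T library at 51.3 FPKM. Its log2 difference of -0.086 was -0.046 without that library and -0.13 without wild-type replicate 1.

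In the thioredoxin system, *Txn1*, the cytosolic thioredoxin that passes electrons to peroxiredoxins, was at 62.8, 99.4, 64.2, 58.3 and 59.5 FPKM in PDX1 P33T and at 45.1 to 61.3 FPKM with a median of 56.2 in wild-type. Every PDX1 P33T library lay above the wild-type median, and the log2 difference was 0.29 with a 95% interval from -0.012 to 0.59, or 0.15 without replicate 2. *Txnrd1*, the reductase of thioredoxin in the cytosol, was at 34.3 ± 2.25 FPKM against 31.2 ± 2.57, and mitochondrial *Txn2* was at 18.5 ± 1.36 FPKM against 20.3 ± 1.84, with log2 differences of 0.14 and -0.13. Replicate 2 was not apart from the other libraries in either of them. *Txnip*, which binds and inhibits thioredoxin and responds to glucose, was at 36.4, 41.4, 30.8, 35.2 and 33.4 FPKM in PDX1 P33T, and *Txnrd2*, the mitochondrial reductase, was at 1.96 ± 0.123 FPKM, both without an identified wild-type row. For *Txnip* no free row of its length was found within 4-fold. For *Txnrd2* the only row of its length within 4-fold had a mean of 0.934 FPKM and missed the margin asked of a match, so it was not used.

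*Glrx3*, a glutaredoxin that carries iron-sulfur clusters, was at 12.3 ± 2.19 FPKM against 11.3 ± 1.05, and *Glrx2*, a glutaredoxin of mitochondria and nucleus, at 2.51 ± 0.246 against 2.21 ± 0.165. Their log2 differences were 0.12 and 0.18, and neither passed the test. That of *Glrx3* rests on PDX1 P33T replicate 2, at 16.2 FPKM against 10.9 to 11.8 in the other 4, and was 0.017 without it. *Glrx5*, needed for iron-sulfur cluster assembly in mitochondria, was the most expressed glutaredoxin at 33.8 ± 6.61 FPKM in PDX1 P33T, and *Glrx*, the cytosolic form, was at 11.4 ± 0.940 FPKM. For each of them 3 wild-type rows of the right length lay within 4-fold, with means of 11.3 to 30.9 FPKM for *Glrx5* and 4.53 to 10.97 FPKM for *Glrx*. All 3 means lay below the PDX1 P33T mean for each gene, but none of the rows could be chosen and rows beyond 4-fold were not considered, so no difference is given.

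Among the genes of glutathione synthesis and reduction, *Gclm*, the modifier subunit of glutamate-cysteine ligase, which carries out the rate-limiting step of glutathione synthesis, was at 20.9, 23.5, 23.2, 22.2 and 23.4 FPKM in PDX1 P33T. In wild-type it was at 14.3 to 22.6 FPKM with a median of 18.5. All 5 PDX1 P33T libraries lay above 5 of the 6 wild-type libraries, and only wild-type replicate 1 reached into their range. The log2 difference was 0.30 ± 0.11 (SE, adjusted p = 0.470), and replicate 2 had little part in it, since it was 0.29 without that library. Leaving out wild-type replicate 1 gave 0.36, and leaving out wild-type replicates 2 and 3 gave 0.18. *Gss*, the synthetase of the second step, was at 3.00 ± 0.338 FPKM against 2.77 ± 0.401, a log2 difference of 0.12 that was 0.067 without PDX1 P33T replicate 2 and 0.19 without wild-type replicate 3.

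*Gclc*, the catalytic subunit of the ligase, was at 8.02 ± 1.01 FPKM in PDX1 P33T, lower per length than *Gclm* in each of the 5 libraries, and 4 possible wild-type rows had means from 5.14 to 26.5 FPKM. *Gsr*, which regenerates glutathione with NADPH, was at 21.8 ± 1.47 FPKM. The only wild-type row of its length within 4-fold had a mean of 20.4 FPKM but missed the margin asked of a match, and it was not used.

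None of the 5 members around NRF2 and KEAP1 had an identified wild-type row, so only levels in PDX1 P33T are given. *Nfe2l2*, which encodes NRF2, was at 9.30 ± 0.612 FPKM and *Keap1*, the adaptor that marks NRF2 for degradation, at 14.7 ± 1.30 FPKM. Possible wild-type rows had means of 6.38, 10.1 and 19.7 FPKM for *Nfe2l2* and of 15.6 and 17.7 FPKM for *Keap1*. *Hmox1*, the inducible haem oxygenase, was at 54.7, 47.3, 64.7, 52.5 and 64.4 FPKM, above the constitutive *Hmox2* at 16.02 ± 0.672 FPKM in every library. Possible wild-type rows of *Hmox2* had means of 12.7, 14.1 and 53.7 FPKM. *Nqo1*, a quinone reductase often used as a readout of NRF2, was at 8.43, 12.2, 12.4, 7.95 and 10.5 FPKM, the widest relative spread of these 5. For *Hmox1* and *Nqo1* no free wild-type row of their length was found within 4-fold.

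The metallothionein *Mt1* was at 274, 271, 268, 254 and 268 FPKM in PDX1 P33T and at 169 to 358 FPKM with a median of 218 in wild-type. The PDX1 P33T libraries lay close together, with a coefficient of variation of 2.84%, all above 5 of the 6 wild-type libraries, and only wild-type replicate 1 was higher. The log2 difference was 0.24 with a 95% interval from -0.11 to 0.58 (adjusted p = 0.798). Leaving out wild-type replicate 1 gave 0.37, and leaving out wild-type replicate 2 gave 0.15. *Mt2* was far lower per length, at 19.2, 22.1, 17.98, 15.95 and 18.7 FPKM in PDX1 P33T and 14.9 to 37.7 FPKM with a median of 16.6 in wild-type, where replicates 3 and 1 stood above the others. Its log2 difference was -0.099 and turned to 0.083 without wild-type replicate 3. The highest wild-type value of *Mt1* was in replicate 1 and that of *Mt2* in replicate 3.

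PDX1 P33T replicate 2 stood apart from the other 4 PDX1 P33T libraries. It had the highest value for 22 of the 35 members with a mean of at least 1 FPKM, against 41.5% of the 11179 gene IDs at that level, and the lowest for 6, against 36.9%. The ratio of its value to the mean of the other 4 was largest for *Prdx4* (1.83), *Prdx1* (1.71), *Prdx2* (1.70) and *Txn1* (1.62), and smallest among these 35 for *Gpx3* (0.697). It was above 1.2 for 14 of the 35 members (40%), against 32.3% of all gene IDs at that level. In this library short genes were higher in general, with a median ratio of 1.403 for the 965 gene IDs under 1000 bases and 0.904 for the 1638 of 8000 bases or more. *Prdx1*, *Prdx2* and *Prdx4* are between 2000 and 4000 bases long, where the median ratio was 1.03, and 7.83%, 8.10% and 5.24% of the 3321 gene IDs of that length reached their ratios. Lengths here are the lengths per gene used for FPKM, and the length of the transcripts present was not known. From 1000 to 2000 bases the median ratio was 1.16.

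**Figure D4:**
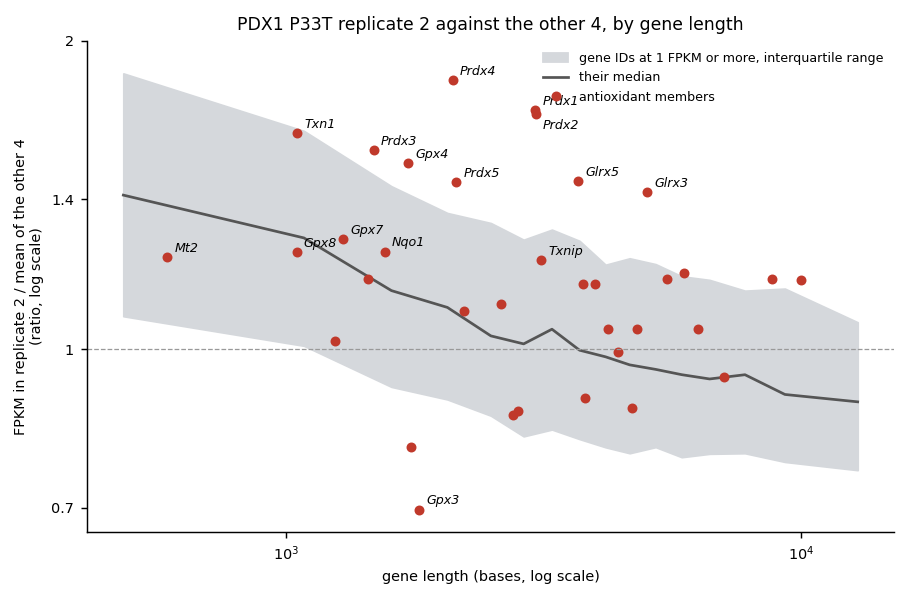
Ratio of FPKM in PDX1 P33T replicate 2 to the mean of the other 4 PDX1 P33T libraries against gene length, both on log axes. The band and line show the interquartile range and the median of the 11179 gene IDs with a mean of at least 1 FPKM, which fall with length, and red points the 35 members, of which those above 1.2 or below 0.8 are named.

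The same library differed in markers. The 6 acinar markers summed to 69.7 FPKM in replicate 2 and to 6.12 to 13.0 FPKM in the other 4, and the 5 beta cell markers, led by insulin, to 333643 FPKM against 236175 to 290523. That beta cell sum is nearly all *Ins1*, *Ins2* and *Iapp*, each highest in replicate 2. The beta cell markers *Mafa* (203 FPKM, the others 266 to 287) and *Ucn3* (514 FPKM, the others 599 to 622) were lowest in replicate 2. The 4 endothelial markers summed to 110 FPKM in replicate 2 against 150 to 194. Acinar markers had no identified wild-type row. The part of these cells, of gene length or of RNA quality in the peroxiredoxin values was not tested. Without this library none of the 24 members was called, and the median log2 difference of the members was 0.057.

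The other genes of the pathway were 81, of which 78 had a gene ID in the table and 45 an identified wild-type row. None was called by limma (0.0893% of the fit). At an unadjusted p under 0.05 there were 6 higher (11.1% of the fit) and 0 lower (12.4%), and limma-voom also gave 0 called and 6 at that level. Of these 45, 27 had a higher and 18 a lower log2 value in PDX1 P33T, with a median difference of 0.099. The 6 were the glutathione transferases *Gstp1*, *Gstt1*, *Gstm2* and *Gstm5*, the mitochondrial malic enzyme *Me3* and *Selenot*, a selenoprotein of the endoplasmic reticulum. *Gstp1* was at 104, 154, 116, 101 and 109 FPKM in PDX1 P33T and at 67.8 to 108 FPKM with a median of 75.5 in wild-type, a log2 difference of 0.55 ± 0.14 (SE, adjusted p = 0.470). *Gstt1* was at 38.9 ± 1.86 FPKM against 30.7 ± 4.69, and *Gstm2* at 22.1 ± 0.694 FPKM against 18.01 ± 3.804. *Gstp1*, *Gstt1*, *Me3* and *Selenot* come from the authors' list of differing genes, which gave 6 of the 45. In that list 88.2% of the genes reached an unadjusted p under 0.05 (limma). *Gstm2* and *Gstm5* were identified by length and level, where 5.9% of the genes did. The transferases belong to families of close paralogs, so reads could be split between them.

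*Me3* was the only 1 of the 45 whose groups did not overlap, against 1.51% of the fit that were higher without overlap, at 0.318, 0.320, 0.273, 0.264 and 0.215 FPKM in PDX1 P33T and 0.0946 to 0.210 FPKM with a median of 0.185 in wild-type. It rests on 37 to 129 reads per library. Of the enzymes that supply NADPH, *Pgd* (12.5 ± 1.61 FPKM against 13.3 ± 1.01) and cytosolic *Me1* (13.2 ± 0.653 against 12.4 ± 1.73) overlapped, and *Idh2*, the mitochondrial isocitrate dehydrogenase, was at 48.5 ± 2.93 FPKM in PDX1 P33T. *Nnt*, the transhydrogenase that makes NADPH in mitochondria, was on only 1 to 11 reads per PDX1 P33T library, 0.0276 ± 0.0263 FPKM. C57BL/6J mice are known to carry a deletion in this gene, while the methods name C57BL/6N, and its wild-type row was not identified.

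Among the other groups the most expressed genes were the ferritin chains *Ftl1* (1007 ± 73.2 FPKM in PDX1 P33T, 1217 ± 333 in wild-type) and *Fth1* (349 ± 19.6 against 411 ± 108), which store iron. *Gstm1* was at 190 ± 19.0 FPKM in PDX1 P33T, and *Sqstm1*, the autophagy receptor that also binds KEAP1, at 267 ± 31.7 FPKM against 283 ± 49.7. The cystine transporter chain *Slc7a11* was at 0.350 ± 0.0682 FPKM in PDX1 P33T, whereas its partner *Slc3a2*, which serves other transporters too, was at 69.6 ± 5.51 FPKM against 63.2 ± 9.12. Of the proteins that produce peroxide, *Ero1b*, the oxidase of the endoplasmic reticulum that is typical of islets, was at 153 ± 5.33 FPKM against 174 ± 34.5 and *Ero1a* at 12.0 ± 0.890 against 11.4 ± 2.53. *Selenow* was at 212 ± 36.3 FPKM against 258 ± 114, and the metal-responsive factor *Mtf1* was at 2.62 ± 0.191 FPKM in PDX1 P33T. In each of these comparisons the larger of the SDs exceeded the difference of the means.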

How the data were processed

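RNA of whole islets was sequenced in 11 libraries. The authors filtered reads, aligned them, counted them per gene and deposited FPKM. The submitters' processing notes name fastp 0.23.1, HISAT2 2.0.5, featureCounts 1.5.0-p3, DESeq2 1.20.0 and the build GRCm39, and the annotation is not given in the sources used here. Members and gene lists were chosen with earlier results of these data known.

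Gene lengths were recovered from the FPKM steps, taking the shortest length between 20 and 130000 bases that turned every value into whole reads (tolerance 2e-06 of a read and 1e-08 of the count). Wild-type rows were put back by a read list of the authors (1711 genes, 1672 above 0 in PDX1 P33T) or by length and level (6167 genes). The latter asked for at least 100 reads in each genotype, means within 4-fold, and every other candidate of that length at least 2-fold further away. Tried on the 1672 list genes above 0 in PDX1 P33T, this rule placed 740 and left the rest unplaced. All 740 were on the right row, and in simulated rows 4 of 6634 (0.0603%) were wrong. Of 100 genes changed 2-fold in the simulation, 35 were placed, and of 100 changed 8-fold, 0 were.

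The 7839 genes with values in both genotypes were fitted with limma 3.58.1 (R 4.3.3, trend and robust) on log2(FPKM + 0.1), without covariates, with Benjamini-Hochberg adjustment over 19329 gene IDs, those without wild-type values counted as unchanged. A fold change on this scale understates the change of low genes. Called genes had adjusted p ≤ 0.05 and differed at least 1.5-fold. Tests of counts were not used as the main test because the values are FPKM. On simulated reads for the 7839 genes, 200 of them changed, 92.0% of log2 changes of 1 were found at a dispersion of 0.03 and 35.5% at 0.1. These genes were already placed, so the shares leave out changed genes lost at placement. Log2 changes under 1 were not simulated.

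One read on 1 kb was worth 0.0271 to 0.0518 FPKM, and read counts cover counting error only. Same-numbered libraries did not deviate together, so the numbers were not used as pairs. All members were described by family, those with a wild-type row by the comparison, and of the other pathway genes those called, those whose groups did not overlap and the most expressed of each group were named. The transferases and *Selenot*, *Nnt*, *Mtf1* and *Slc7a11* were named after their values were seen. Single-library files repeat the table and were not used. Older symbols of *Ero1a* and *Ero1b* came from RefSeq synonyms. Python 3.11.15, numpy 2.4.6, pandas 2.3.3 and matplotlib 3.10.9 were used.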

Additional observations from a re-analysis of the deposited data

Results flagged for a closer look

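In groups of 5 or 6 libraries, a library whose gap to the nearest other exceeds Dixon's 95% critical value was marked, which chance does in about 1 of 20 groups. Of 60 groups of libraries, 13 were marked, and 10 of the 13 were PDX1 P33T replicate 2 standing above the rest. These were *Sod1* (82.7 FPKM, the others 70.3 to 73.2), *Gpx4* (215 FPKM, the others 132 to 156), *Prdx1* (137 FPKM, the others 74.8 to 84.9), *Prdx2* (79.2 FPKM, the others 44.5 to 49.1), *Prdx3* (56.5 FPKM, the others 33.9 to 37.6), *Prdx4* (20.4 FPKM, the others 10.9 to 11.5), *Prdx5* (66.3 FPKM, the others 43.5 to 49.6), *Txn1* (99.4 FPKM, the others 58.3 to 64.2), *Glrx3* (16.2 FPKM, the others 10.9 to 11.8) and *Glrx5* (45.2 FPKM, the others 29.3 to 33.8). The same library was marked as low for *Srxn1* (51.3 FPKM, the others 57.8 to 60.2). Over all 11179 gene IDs with a mean of at least 1 FPKM it was marked as high for 12.6% and as low for 4.97%.

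In wild-type, replicate 1 was marked as high for *Prdx2* (48.8 FPKM, the others 43.0 to 44.5) and replicate 3 for *Gss* (3.56 FPKM, the others 2.45 to 2.76).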

How the results depend on the processing

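None of the 24 members and none of the 45 other pathway genes was called under any of the alternatives run, with a lowest adjusted p among members of 0.145, without wild-type replicate 1. The alternatives were pseudocounts of 1 and 0.01 FPKM, a mean of at least 1 FPKM, median centring, limma without trend or robust, list rows only, adjustment over the fitted genes, other fold limits, each library left out and, added after the data were seen, limma-voom on recovered reads, a 16-fold margin and no wild-type replicates 2 and 3. The sign of 22 of the 24 log2 differences held in every alternative that gave them a value, which 6 members had with list rows only, 15 with the 16-fold margin and 23 at a mean of at least 1 FPKM. That of *Gpx1* was 0.059 and that of *Mt2* 0.083 without wild-type replicate 3, as also in the replicate block by library names, and 0.13 and 0.054 without wild-type replicates 2 and 3, and their range with each library left out was -0.20 to 0.059 and -0.18 to 0.083. The median level over the members in PDX1 P33T was 18.1 to 18.9 FPKM with each library left out and 18.6 FPKM at equal medians.

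The replicate block by titles and the replicate block by library names each gave 0 members called. Same-numbered libraries correlated in their deviations from the group means at -0.56 to 0.12 by titles and at -0.56 to 0.11 by library names. The numbers were therefore not used as pairs, but so few correlations cannot exclude a shared preparation. Each block leaves 1 wild-type library without a partner.

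*Sod3*, *Gpx7* and *Gpx8* rest on few reads. The 12 members without an identified wild-type row and changes beyond 4-fold could not be tested.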
